A study of Drosophila melanogaster with 9 samples.

Results

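The genes described here encode nuclear subunits of the last stages of the mitochondrial respiratory chain, namely complex III, cytochrome c, complex IV and the ATP synthase. They were taken by symbol. All genes whose FlyBase symbol starts with UQCR-, with COX and a digit, or with ATPsyn were included, together with RFeSP, Cyt-c1, Cyt-c-p, cype and levy. This gave 45 of the 17611 genes in the deposited table. Of these, 30 are main copies (8 of complex III, 1 cytochrome c, 10 of complex IV and 11 of the ATP synthase). The other 15 carry the symbol of a subunit followed by L, most of them known as testis-expressed copies, and are called paralogues and kept apart.

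RNA was sequenced from Malpighian tubules, the renal organ of Drosophila melanogaster, in 3 groups of 3 libraries. Every group carried the driver esg-Gal4, which acts in progenitor cells of the gut and in stem cells of the tubule, with the temperature-sensitive repressor tub-Gal80ts and UAS-GFP. The control group carried nothing more, the yki3SA group had UAS-Yki-3SA in addition, which makes an active version of Yorkie, a transcriptional coactivator that drives growth, and gives rise to gut tumours. The group called ITP-i had both UAS-Yki-3SA and UAS-ITP-i, which targets the hormone ITP by RNA interference. Virgin progeny spent 6 to 8 days at 18 °C before the transgenes were switched on by 8 days at 29 °C, and RNA came from 80 tubules per genotype. Nothing in the labels tells if the 3 libraries came from separate flies, so p-values measure the spread between these libraries, which may be technical. Control and yki3SA libraries are labelled as re-analysed and ITP-i libraries are not, so that difference and the ITP-i genotype cannot be told apart, and no group carries a neutral RNAi transgene.

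Complex III takes electrons from ubiquinol and hands them to cytochrome c, a small soluble carrier. Complex IV, cytochrome c oxidase, passes them on to oxygen, and both complexes pump protons across the inner mitochondrial membrane. The ATP synthase lets protons flow back and makes ATP. A few core subunits are encoded in the mitochondrial genome, while the genes described here are nuclear. Principal cells of the tubule are rich in mitochondria and spend much ATP on the proton pump that drives urine secretion.

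Total counts were 34640437 to 49338340 per library. Levels are given as CPM, counts scaled to a common library size with TMM factors (0.879 to 1.21), as mean ± SD of 3 libraries. A gene was called when its adjusted p in edgeR's quasi-likelihood test was under 0.05 over all 10253 genes tested. Of those genes, 30.1% were called in yki3SA against control, 16.2% higher and 14% lower, so that 53.7% of calls were rises, or 77.9% when libraries were scaled by total counts alone. Markers of principal and stellate cells were present in every library, with 8 principal cell genes summing to 10318 to 20197 CPM and 6 stellate cell genes to 926.5 to 1417.4 CPM. Summed markers of neighbouring organs differed between the groups, and not every gene followed the sum of its list. In yki3SA against control, 10 of 16 fat body genes were called lower, and of 28 tested gut genes 19 lower and 1 higher. For ovary genes it was 11 of 18 lower, and for hemocyte genes 5 of 10. In ITP-i against yki3SA, 7 fat body genes were called higher and 1 lower, beside 10.6% and 10.1% of all genes tested. Called higher there were also 14 of 28 tested gut genes, 10 of 18 ovary genes and 2 of 10 hemocyte genes. Of 16 tested muscle genes 6 were called higher (median log2 0.53), and 0 genes of these 4 lists were called lower. The 16 fat body genes summed to 2681 to 6129 CPM across control libraries, 218 to 433 CPM in yki3SA and 2276 to 4172 CPM in ITP-i. The 31 gut genes, 1 of them at 0 in all libraries, summed to 504 to 1432 CPM, 31.7 to 166 CPM and 227 to 540 CPM. The 19 ovary genes, 1 of them at 0 in all libraries, summed to 168 to 342 CPM, 49.1 to 112 CPM and 91.3 to 205 CPM, and the 11 hemocyte genes to 99.8 to 165 CPM, 43.6 to 50.05 CPM and 57.0 to 89.3 CPM. The 17 muscle genes summed to 1022 to 1206 CPM in control and yki3SA and to 1252 to 1460 CPM in ITP-i, and 2 renal progenitor genes to 3.22 to 9.16 CPM over all libraries. Their part in the results on subunit genes was not tested. Fits with the fat body or gut sum as a covariate are given below. Both sums set yki3SA apart from the other groups without overlap, so these fits cannot tell marker level and group apart.

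Subunit genes of all 3 complexes were lower in tubules of yki3SA flies than in control. Of the 30 main copies 29 were tested, 26 fell and 0 rose, against 14% of all genes tested that were called lower. Their median log2 fold change was -0.63, and that of all tested genes was 0.07. The yki3SA libraries lay wholly below control for 27 of 29, as they did for 19.8% of all genes tested, and wholly above for 0, against 26% of all genes. All 10 genes of complex IV fell, as did all 11 of the ATP synthase and 5 of 7 tested for complex III. In bulk RNA, fewer cells of a type and less RNA per cell cannot be told apart. The summed principal cell markers were also lower in yki3SA, at 70.3% of control, with 3 of 8 called (Irk3, CapaR and Oatp58Db). The proton pump gene Vha16-1, a large part of that sum, was at 7641 and 6776 CPM without a call. The median log2 fold change of the 8 markers was -0.59. In ITP-i against yki3SA the marker median was 0.565, with 4 of 8 called higher, beside 10.6% of all genes tested. In ITP-i the marker sum was at 96.3% of control, with markers on both sides of it. Uro was higher (1751 against 3300 CPM, log2 0.91, adjusted p = 0.031), while Irk3 was lower (2754 against 1169 CPM, log2 -1.24, adjusted p = 1.8e-04). The summed stellate cell markers were at 75.3% of control in yki3SA, with 2 of 6 called lower, and at 75.1% in ITP-i. The part of both cell types in the lower subunit levels was not tested. The one main copy that was not tested, UQCR-14, encodes a small subunit of complex III. It is listed at 0 in all 9 libraries, and its annotated span overlaps that of CG32576 on the opposite strand, a gene at 27.5 CPM in control. In all, the spans of 14 of the 30 main copies overlap that of another annotated gene, on the opposite or the same strand, and how their reads were divided is not known.

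**Figure D1:**
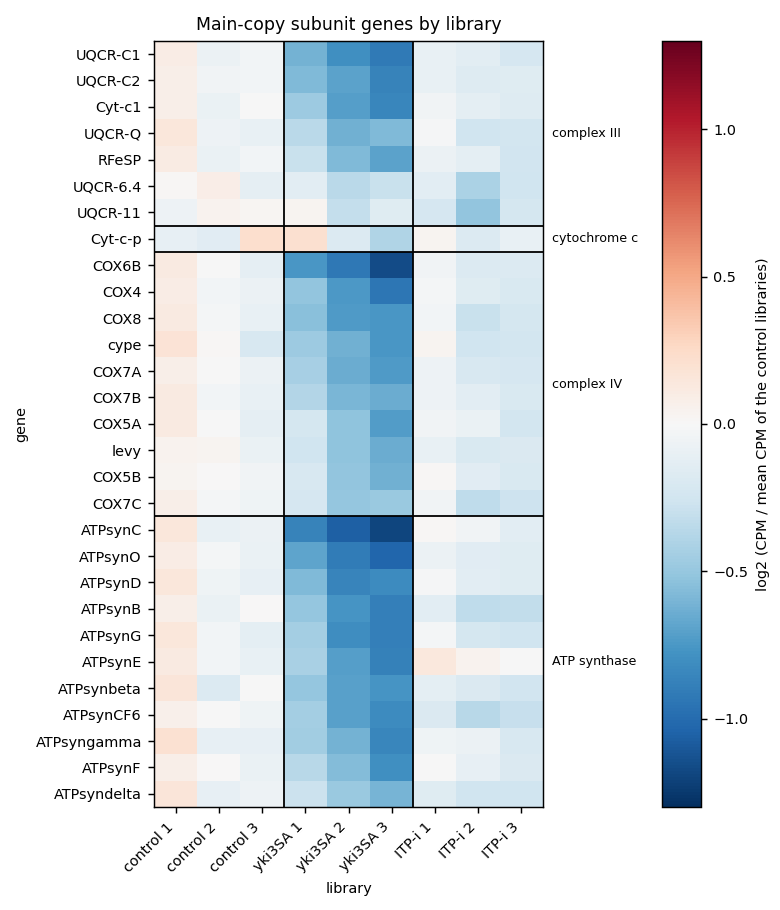
Level of the 29 tested main copies in each library (columns), as log2 of CPM over the mean CPM of the control libraries, with rows grouped by complex. The yki3SA columns are darker blue than the control columns in all rows but UQCR-11 and Cyt-c-p, with library 3 mostly the darkest, and the ITP-i columns are pale.

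Within complex III, UQCR-C1 and UQCR-C2 encode the large core proteins, relatives of the mitochondrial processing peptidase. UQCR-C1 was at 1171, 1041 and 1069 CPM in the control libraries, 714, 630 and 577 CPM across yki3SA libraries and 1026, 994 and 942 CPM across ITP-i libraries. The yki3SA libraries lay below all others, and the ITP-i libraries lay just below the lowest control library. Its log2 fold change in yki3SA against control was -0.77 (SE 0.12, adjusted p = 0.0011). UQCR-C2 was at 856, 786 and 789 CPM across control libraries, 546, 499 and 443 CPM across yki3SA libraries and 759, 721 and 726 CPM across ITP-i libraries, the same order without overlap (log2 -0.71, SE 0.11, adjusted p = 0.0014). Cyt-c1, the heme subunit that reduces cytochrome c, was at 621, 553 and 587 CPM across control libraries, 422, 358 and 327 CPM across yki3SA libraries and 569, 538 and 522 CPM across ITP-i libraries (log2 -0.67, SE 0.12, adjusted p = 0.0030). In this gene yki3SA stood apart while ITP-i overlapped control. RFeSP, the Rieske iron-sulfur protein, fell from 498 ± 35.2 to 350 ± 51.1 CPM, and UQCR-Q, a small membrane subunit, from 226 ± 21.1 to 159 ± 16.8 CPM. The calls of RFeSP and UQCR-Q ended with total-count scaling, and that of RFeSP also without control library 1 and without both tumour libraries numbered 3.

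Both remaining tested genes of complex III are small accessory subunits, and neither passed the test in any comparison. UQCR-11 was at 120, 130 and 128 CPM across control libraries, 129, 102 and 113 CPM across yki3SA libraries and 109, 88.5 and 108 CPM across ITP-i libraries, so that control and yki3SA overlapped. Its log2 fold change of -0.14 in yki3SA against control had a 95% interval of -0.41 to 0.13, and it was 0.15 with total-count scaling. UQCR-6.4 was at 59.9, 63.1 and 54.8 CPM across control libraries, 54.0, 46.4 and 48.4 CPM across yki3SA libraries and 54.0, 44.5 and 49.6 CPM across ITP-i libraries. Its yki3SA libraries lay below control by a narrow margin (log2 -0.26, 95% interval -0.51 to -0.01, adjusted p = 0.11), a value that was 0.03 with total-count scaling.

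Cyt-c-p, the somatic cytochrome c gene, did not pass the test in any comparison. It was at 400, 388 and 502 CPM across control libraries, 497, 379 and 328 CPM across yki3SA libraries and 442, 379 and 402 CPM across ITP-i libraries. All 3 groups overlapped. The log2 fold change in yki3SA against control was -0.10 (SE 0.17, 95% interval -0.47 to 0.28, adjusted p = 0.70), or 0.18 with total-count scaling. Over the 22 alternatives it ranged from -0.31 without yki3SA library 1 to 0.48 with the fat body covariate. The interval does not exclude a modest change in either direction.

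Among complex IV genes, COX6B, which encodes a subunit on the intermembrane side, had the largest fall. It was at 572, 528 and 488 CPM across control libraries, 314, 279 and 236 CPM across yki3SA libraries and 514, 468 and 469 CPM across ITP-i libraries. Every yki3SA library was below every library of the other groups, and the difference from control was log2 -0.94 (SE 0.13, adjusted p = 6.4e-04). CG18809 is annotated across the same stretch on the same strand and fell from 35.6 to 23.0 CPM. COX4, the most abundant complex IV gene by CPM, was at 744, 678 and 659 CPM across control libraries, 488, 414 and 362 CPM across yki3SA libraries and 682, 622 and 607 CPM across ITP-i libraries (log2 -0.72, SE 0.13, adjusted p = 0.0030). COX8, a small membrane subunit, was at 312, 283 and 271 CPM across control libraries, 198, 173 and 171 CPM across yki3SA libraries and 281, 236 and 246 CPM across ITP-i libraries (log2 -0.68, SE 0.12, adjusted p = 0.0023). For both genes the control and yki3SA libraries did not overlap.

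The other complex IV genes fell by less. cype, which encodes subunit 6C, fell from 281 ± 37.4 to 184 ± 18.0 CPM, COX7A from 522 ± 28.3 to 345 ± 37.3 CPM and COX7B from 251 ± 19.4 to 173 ± 17.1 CPM. COX5A, COX5B and levy, which encodes subunit 6A, had log2 fold changes of -0.48, -0.44 and -0.47. The smallest fall was that of COX7C, from 270 ± 13.3 to 205 ± 23.1 CPM (log2 -0.40, adjusted p = 0.034). oys, annotated across COX7C on the opposite strand, fell from 223 to 156 CPM. The calls of COX5A, COX5B, COX7C and levy ended without control library 1 and without yki3SA library 2 or 3, and without both tumour libraries numbered 3, and these and that of COX7B ended with total-count scaling. COX5B and COX7C also lost theirs without control library 2 or 3, and COX5A without control library 2.

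The ATP synthase had the gene with the largest fall of all main copies, ATPsynC, which encodes the subunit of the proton-carrying membrane ring. ATPsynC was at 2668, 2251 and 2286 CPM across control libraries, 1316, 1153 and 1053 CPM across yki3SA libraries and 2432, 2326 and 2190 CPM across ITP-i libraries. Control and ITP-i overlapped, and the yki3SA libraries were far below both (log2 -1.03, SE 0.13, adjusted p = 3.1e-04). ATPsynO, the stalk subunit that confers oligomycin sensitivity, was at 553, 509 and 487 CPM across control libraries, 321, 274 and 253 CPM across yki3SA libraries and 488, 467 and 462 CPM across ITP-i libraries (log2 -0.87, SE 0.12, adjusted p = 6.0e-04). ATPsynD, which encodes subunit d of the peripheral stalk, was at 386, 336 and 323 CPM across control libraries, 235, 193 and 197 CPM across yki3SA libraries and 343, 316 and 312 CPM across ITP-i libraries (log2 -0.74, SE 0.12, adjusted p = 0.0017). Neither of these genes had overlapping control and yki3SA libraries.

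In the catalytic head, ATPsynbeta, the subunit that carries the catalytic sites, fell from 2223 ± 259 to 1413 ± 135 CPM (log2 -0.65, adjusted p = 0.0040). The central stalk gene ATPsyngamma fell from 759 ± 95.9 to 490 ± 67.6 CPM. ATPsyndelta, also of the central stalk, had the smallest fall of the enzyme, from 308 ± 30.3 to 226 ± 26.1 CPM (log2 -0.45, adjusted p = 0.020), a call that ended with total-count scaling and without control library 1, yki3SA library 2 or 3, or both tumour libraries numbered 3. The peripheral stalk genes ATPsynB and ATPsynCF6 (coupling factor 6) had log2 fold changes of -0.71 and -0.65. ATPsynE, ATPsynF and ATPsynG, which encode small membrane subunits, had log2 fold changes of -0.66, -0.56 and -0.70. Across the 29 main copies the more abundant genes had the larger falls (Spearman's rho -0.47 between mean CPM and log2 fold change, across genes that share the same libraries and scaling, given as a description).

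**Figure D2:**
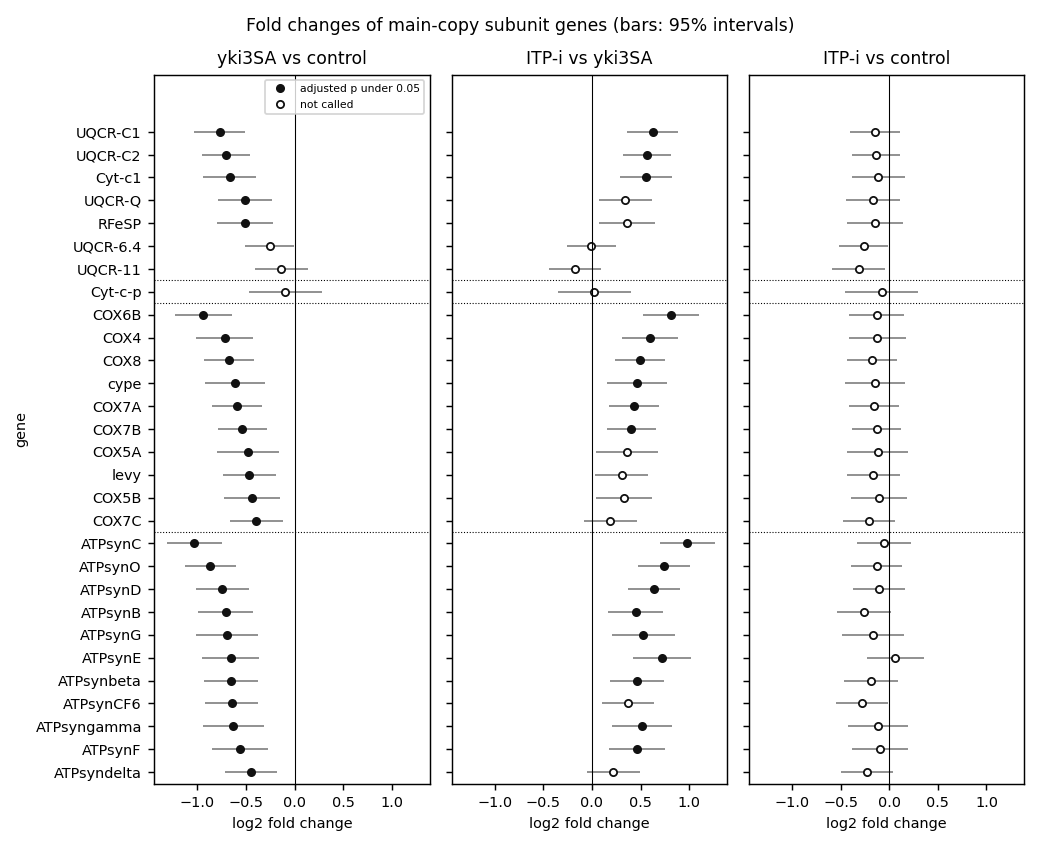
Log2 fold change of each tested main copy in the 3 comparisons, with 95% intervals as bars, filled points for an adjusted p under 0.05 and open points otherwise. All points for yki3SA against control lie left of 0, and in ITP-i against control no point is filled.

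Summed over each complex, the yki3SA level was 64.1% of control for complex III (3400 ± 190 against 2178 ± 247 CPM), 66.4% for complex IV (4442 ± 290 against 2950 ± 391.6 CPM) and 59.3% for the ATP synthase (8719 ± 775 against 5170 ± 618 CPM). As CPM of total counts, without TMM factors, these shares were 78.1%, 80.9% and 72.3%. The choice of scaling thus moves the size of the falls. With total-count scaling the median log2 fold change of main copies was -0.34 while that of all tested genes was 0.37, so that main copies lay 0.71 below the median of all genes, against 0.70 with TMM. Of the 26 calls 18 were kept with total-count scaling, and the sign of all 26 stayed negative under each of 22 alternatives. With the summed fat body or gut markers as a covariate 0 of the 26 were called, the median being -0.60 and -0.48. Both sums set yki3SA apart from the other groups without overlap, so these fits cannot tell marker level and group apart. Calls over all genes also dropped, as given below, and the cause of the lost calls was not tested.

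**Figure D3:**
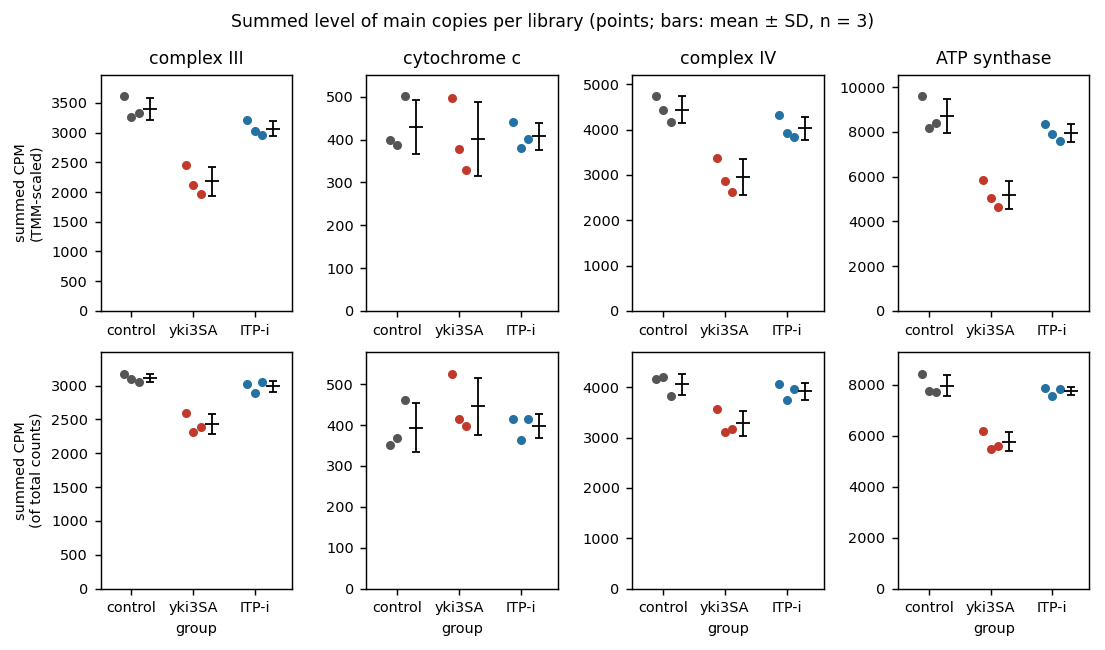
Summed level of the main copies of each complex in each library, with TMM scaling (upper row) and as CPM of total counts (lower row), with mean ± SD of 3 libraries as bars. The yki3SA points lie below the other groups in complex III, complex IV and the ATP synthase on both scales, and not for cytochrome c.

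Ratios of counts within a library do not depend on how libraries are scaled, and several of them differed between the groups. The pairs were chosen after their values were seen, so the ratios are a description without a test. ATPsynC counts were 107%, 114% and 103% of ATPsynbeta counts across control libraries, 84.1%, 84.4% and 80.6% across yki3SA libraries and 120%, 119% and 117% across ITP-i libraries. In this ratio no 2 groups overlapped, with ITP-i the highest. COX6B counts were 89.4%, 89.8% and 89.3% of COX5A counts across control libraries, 62.1%, 67.9% and 65.9% across yki3SA libraries and 89.6%, 83.8% and 93.9% across ITP-i libraries. Here yki3SA stood below both other groups, which overlapped.

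The genes with little or no fall went the other way in such ratios. Cyt-c-p counts were 64.4%, 70.1% and 85.5% of Cyt-c1 counts across control libraries, 118%, 106% and 100% across yki3SA libraries and 77.6%, 70.5% and 77.0% across ITP-i libraries. UQCR-11 counts were 10.3%, 12.5% and 12% of UQCR-C1 counts across control libraries, 18.1%, 16.2% and 19.6% across yki3SA libraries and 10.6%, 8.90% and 11.4% across ITP-i libraries. For both ratios the yki3SA libraries were above all others. UQCR-6.4 against UQCR-C1 was likewise higher in yki3SA (7.77% ± 0.544) than in control (5.43% ± 0.540) and ITP-i (5% ± 0.452), with no overlap.

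**Figure D4:**
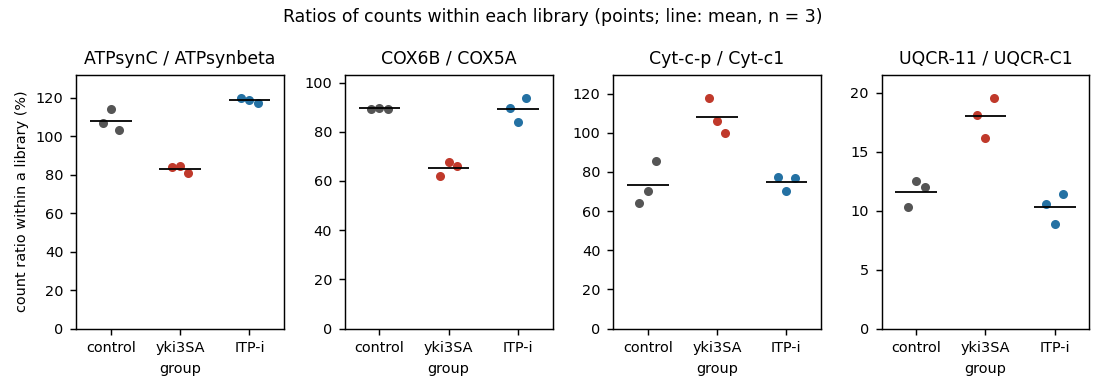
Ratio of the counts of named pairs of genes within each library, in percent, with a line at the mean of 3 libraries. The yki3SA points lie below the other groups for ATPsynC over ATPsynbeta and COX6B over COX5A, and above them for Cyt-c-p over Cyt-c1 and UQCR-11 over UQCR-C1.

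Levels between subunits were compared per kilobase of annotated exon. In control, complex IV genes ranged from 316 CPM per kb for COX7C to 1020 CPM per kb for levy, and the highest level was 3.23 times the lowest. The range was wider for complex III, from 78.2 CPM per kb for UQCR-11 to 670 CPM per kb for UQCR-C1. It was widest for the ATP synthase, from 80.8 CPM per kb for ATPsyndelta to 1290 CPM per kb for ATPsynC, whose protein is present in several copies per enzyme. The levels per kb in yki3SA had the same lowest and highest genes, and their ratio went from 15.9 to 10.6 for the ATP synthase and from 8.57 to 5.51 for complex III. For complex IV it was 3.07. Annotated exon lengths can include exons not used in tubules, which lowers a level per kb. The low end for the ATP synthase rests on ATPsyndelta, annotated at 3817 bp against 615 to 2386 bp for the other genes of the enzyme. The next lowest in control was ATPsynE at 357.5 CPM per kb.

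Against yki3SA, the same complexes were higher in ITP-i. Of 29 main copies tested, 18 rose and 0 fell, against 10.6% of all genes tested that were called higher and 20.7% called either way, and the median log2 fold change was 0.46 (all genes -0.04). The ITP-i libraries lay wholly above yki3SA for 24 of 29, as for 19.2% of all genes tested, and wholly below for 0, against 22.6% of all genes. By complex, 9 of 11 genes of the ATP synthase, 6 of 10 of complex IV and 3 of 7 of complex III rose. ATPsynC had the largest rise (log2 0.98, SE 0.13, adjusted p = 9.2e-04), followed by COX6B (log2 0.81, SE 0.13, adjusted p = 0.0027) and ATPsynO (log2 0.74, SE 0.12, adjusted p = 0.0027). ATPsynE rose from 163 ± 27.1 to 268 ± 13.2 CPM, where control was at 257 ± 19.2 CPM. In complex III, UQCR-C1 rose by log2 0.62 (adjusted p = 0.0058) and UQCR-C2 by 0.57 (adjusted p = 0.0075). COX4 rose by log2 0.60 (adjusted p = 0.012). This comparison shares its yki3SA libraries with the one against control, so the 18 genes that fell in one and rose in the other are not independent findings.

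RFeSP, UQCR-Q, ATPsynCF6, ATPsyndelta, COX5A, COX5B, COX7C and levy fell in yki3SA and did not pass the test in ITP-i against yki3SA. Their log2 fold changes there were 0.19 for COX7C, 0.22 for ATPsyndelta and 0.30 to 0.37 for the others. The number of rises depended on single libraries. It was 7 without ITP-i library 1, 10 without ITP-i library 2, 9 without yki3SA library 2 and 9 without yki3SA library 3. It was 8 without both tumour libraries numbered 3, and 13 with total-count scaling. ATPsynC, ATPsynD, ATPsynE, ATPsynO, UQCR-C1, UQCR-C2 and COX6B were called in all 20 alternatives without a covariate. With the fat body or gut markers as a covariate, whose sums set yki3SA apart without overlap, 0 main copies were called (medians 0.46 and 0.35).

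Between ITP-i and control, 0 of 29 main copies were called by edgeR, against 10.5% of all genes tested that were called in either direction, 6.37% higher and 4.14% lower. DESeq2 and limma-voom also called 0, and 3 genes were lower at an unadjusted p under 0.05. The median log2 fold change was -0.15, and 28 of 29 values were below 0, the exception being ATPsynE at 0.06. The libraries of 8 genes lay wholly below control and those of 0 wholly above, where 14.8% and 15.9% of all genes tested did so. The lowest value was that of UQCR-11 (log2 -0.31, 95% interval -0.58 to -0.04, adjusted p = 0.15). The summed level in ITP-i was 91.0% of control with TMM and 96.9% as CPM of total counts. A p that misses the threshold does not show that the levels were equal.

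Among the paralogues, 3 of 15 had no count in any library (ATPsynCF6L, COX5BL and UQCR-14L), and 8 had enough counts to be tested. All 15 together summed to 4.18 ± 0.521 CPM across control libraries, where the main copies summed to 16990 ± 1188 CPM. Testis markers were also low. Apart from janA, at 18.2 to 19.9 CPM in the group means, none of the 22 testis genes reached 1 CPM. COX4L, the paralogue of COX4, was at 1.49, 1.13 and 1.45 CPM across control libraries, 0.873, 0.761 and 0.536 CPM across yki3SA libraries and 0.659, 0.587 and 0.471 CPM across ITP-i libraries. Both tumour groups lay below control without passing the test (log2 -0.91, adjusted p = 0.11, and -1.24, adjusted p = 0.084), and the second difference was called by DESeq2 (adjusted p = 0.046). UQCR-11L was at 1.11 ± 0.338, 0.504 ± 0.105 and 0.684 ± 0.301 CPM. It overlaps Acsl on the same strand, a gene at 707 CPM across control libraries. UQCR-11L counts were 0.164% ± 0.0677 of Acsl counts in control, 0.160% ± 0.0417 in yki3SA and 0.141% ± 0.0716 in ITP-i. With this spread the ratio does not show if the 2 genes moved together.

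One paralogue was called, and in the direction opposite to the main copies. ATPsynepsilonL, related to the epsilon subunit gene sun, had 3, 10 and 8 counts across control libraries, 110, 111 and 84 across yki3SA libraries and 4, 1 and 12 across ITP-i libraries. On the CPM scale it was at 0.0746, 0.268 and 0.241 across control libraries, 3.0, 2.48 and 1.41 across yki3SA libraries and 0.101, 0.0255 and 0.283 across ITP-i libraries. The yki3SA libraries stood above all others, and control and ITP-i overlapped. With at most 12 counts in any library of the other groups, it passed the filter for testing through yki3SA, the group where it was high. Its calls are therefore a description rather than independent support. The log2 fold change was 3.55 in yki3SA against control (SE 0.77, adjusted p = 0.0073) and -4.03 in ITP-i against yki3SA (SE 0.79, adjusted p = 0.0073), where 16.2% of all genes were called higher and 10.1% lower. Its counts remained small beside those of sun, at 0.118% ± 0.0657 in control, 2.03% ± 0.517 in yki3SA and 0.0827% ± 0.0834 in ITP-i. Among annotated genes within 2 kb, CAH7 on the same strand had 366, 106 and 197 counts across control libraries and 54, 36 and 141 across yki3SA libraries, and knk and gammaSnap2 had at most 17 counts in any library. Of these libraries, 1 of control had 3 counts and 1 of ITP-i had 1 count, at and under a floor of 3 counts, so the size of either fold change is uncertain. Both calls held with DESeq2 and limma-voom and without each library in turn, and ended with either marker covariate.

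**Figure D5:**
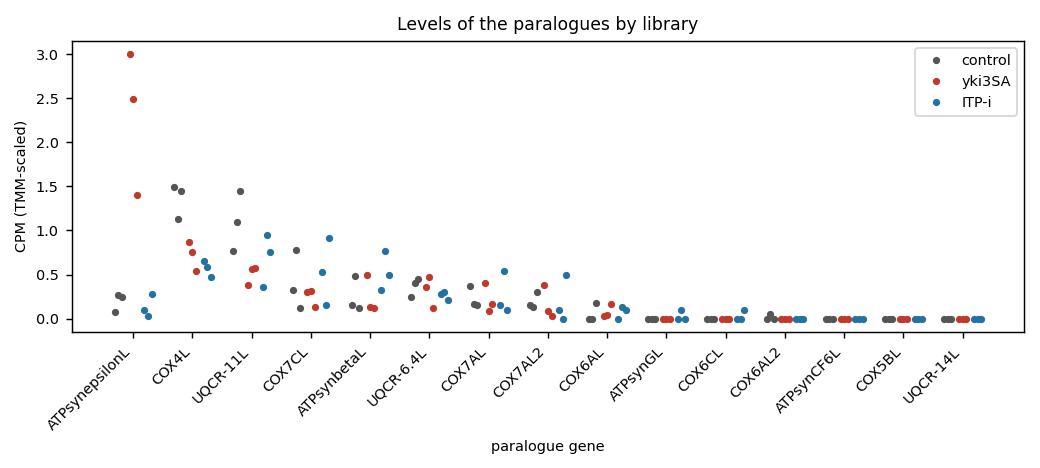
Level of the 15 paralogues in each library, in TMM-scaled CPM, with 3 points per group. ATPsynepsilonL is at 1.41 to 3.0 CPM in yki3SA and under 0.3 CPM in the other groups, and no other paralogue passes 1.5 CPM.

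Other subunits of the same complexes, which the symbol rule leaves out, moved with the main copies. blw, which encodes the alpha subunit of the ATP synthase, was at 3119, 2633 and 2614 CPM across control libraries, 1580, 1541 and 1319 CPM across yki3SA libraries and 2720, 2675 and 2363 CPM across ITP-i libraries (log2 -0.91, adjusted p = 6.9e-04, and log2 0.81, adjusted p = 0.0026). sun fell from 168 to 111 CPM and rose to 168 CPM, and ox, a small subunit of complex III, fell from 33.9 to 24.6 CPM and rose to 35.3 CPM, with calls in both comparisons. All 6 mitochondrially encoded subunits of these complexes fell in yki3SA, with a median log2 fold change of -1.13, and all 6 rose in ITP-i (0.93). Beside these calls and those of blw, sun and ox, 14% of all genes tested were called lower in yki3SA against control. In ITP-i against yki3SA 10.6% were called higher. The smallest p was that of mt:ATPase6, part of the proton channel of the ATP synthase, at 2350 ± 73.9, 1031 ± 63.4 and 2487 ± 150 CPM in the 3 groups (log2 -1.19, adjusted p = 5.4e-05, and log2 1.27, adjusted p = 9.8e-05). The ratio of mt:CoI to COX4 counts was 2570% ± 395 in control, 2040% ± 181 in yki3SA and 2300% ± 126 in ITP-i. The libraries were enriched for poly-A RNA, which bears on the levels of mitochondrial transcripts.

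Of 32 tested nuclear subunits of complex I, 21 fell in yki3SA (median log2 -0.42) and 9 rose in ITP-i against yki3SA (median 0.30). For this and the next lists, 14% of all genes tested fell in the first comparison and 10.6% rose in the second. ND-39 fell from 499 ± 16.1 to 291 ± 33.4 CPM and rose to 431 ± 21.4 CPM (adjusted p = 9.6e-04 and 0.0085). All 4 genes of complex II fell (median -0.54), and SdhA, the flavoprotein subunit, had the largest change (log2 -1.22, adjusted p = 5.7e-05), while 2 of the 4 rose in ITP-i. Among carriers, sesB, the adenine nucleotide translocase, fell from 2900 to 1619 CPM, and Mpcp2, a phosphate carrier, from 2196 to 1180 CPM. porin, the channel of the outer membrane, fell from 915 to 646 CPM. These 3 carrier and porin genes were the ones of 6 that fell, and each of them rose in ITP-i. In the cristae list, Mitofilin (log2 -0.70, adjusted p = 0.0012) and Chchd3 (log2 -0.51, adjusted p = 0.015) fell of 4 genes, and Mitofilin rose in ITP-i.

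Factors that assemble the complexes or regulate their genes were listed separately. Of 9 tested assembly and heme factors, 2 fell and 0 rose in yki3SA, where 14% of all genes tested fell, with a median log2 fold change of 0.03. The ones that fell were Cox10, which makes the heme of complex IV (92.1 to 69.4 CPM, adjusted p = 0.022), and Cchl, the cytochrome c heme lyase (112 to 82.6 CPM, adjusted p = 0.019). Of 9 tested regulators 0 were called in yki3SA, where 30.1% of all genes tested were called either way. Those with the smallest p were Pink1, clu and Ets97D. Ets97D, an Ets factor known to act on mitochondrial genes, was at 7.49 and 10.7 CPM (log2 0.52, adjusted p = 0.062), and clu, which acts on mitochondrial transcripts and position, at 134 and 94.1 CPM (log2 -0.51, adjusted p = 0.056). Pink1, a kinase of mitochondrial quality control, was called lower in ITP-i against yki3SA, from 334 to 228 CPM (log2 -0.55, adjusted p = 0.0046). It was the 1 regulator of 9 tested that was called there, near the 10.1% of all genes tested that were called lower.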

How the data were processed

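Per the submitters' processing notes, TopHat, Cufflinks, HTSeq and DESeq were used, with no version or role. The build, annotation and strand setting were not given in the sources used here. Values in the deposited table are whole-number counts of reads per gene for each library, which the authors had not normalized. Of 17611 identifiers 17552 were matched to a symbol. Members and lists were chosen with earlier results of these data known. Genes were filtered with filterByExpr, scaled with TMM and fitted over all 9 libraries with edgeR 4.0.16 (R 4.3.3, prior count 0.125, 6 residual degrees of freedom), after the procedure was tested on simulated data. The Benjamini-Hochberg adjustment ran over 10253 genes. For the tested main copies, precision is limited by 3 libraries a group rather than by depth, while the paralogues had few counts. No 2 libraries agreed within sampling noise. Named in full were, per complex, the most abundant main copy, the 3 with the smallest p in yki3SA against control and the 2 in ITP-i against yki3SA, the main copies never called, and paralogues of at least 1 CPM; of other lists, up to 3 genes by p. Exon lengths and neighbours come from Ensembl release 115, whose build may differ. Alternatives were DESeq2 1.42.0, limma-voom (limma 3.58.1), 3 other scalings, 2 other filters, robust fitting, a replicate block, 2-group fits, marker covariates and fits without libraries. Plots used Python 3.11.15 with matplotlib 3.10.9.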

Additional observations from a re-analysis of the deposited data

How the results depend on the processing

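The direction of every main copy called in yki3SA against control or in ITP-i against yki3SA was the same in all 22 alternatives. UQCR-11, UQCR-6.4 and Cyt-c-p, never called, went from -0.14, -0.26 and -0.10 to 0.15, 0.03 and 0.18 with total-count scaling in yki3SA against control, and Cyt-c-p ranged from -0.31 to 0.48 over all alternatives, the highest with the fat body covariate. For yki3SA against control, the count of 26 main copies called went to 0 with the fat body and to 0 with the gut marker covariate, while calls over all genes went from 3091 to 12 and 168. Without single libraries it was 20 to 26 (2177 to 3150 over all genes). The median of -0.63 was -0.34 with total-count scaling and -0.48 with the gut covariate. For ITP-i against yki3SA, the count of 18 went to 0 with either covariate (4 and 181 over all genes, from 2126) and to 8 without both tumour libraries numbered 3 (1362 over all genes). Without single libraries it was 7 to 24 (1028 to 2047 over all genes). The median of 0.46 was 0.27 with total-count scaling. The main copies that fell and then rose, 18 of them, numbered 0 with either covariate, 8 without both tumour libraries numbered 3 and 7 to 24 without single libraries. For ITP-i against control, all-gene calls went from 1077 to 598 with the gut covariate and to 642 to 1095 without single libraries. The cause of the lost calls was not tested. The fat body and gut sums set yki3SA apart without overlap, so the covariate fits cannot tell markers and group apart. A block for the replicate number gave 26, 23 and 0 main copies called in the 3 comparisons (26, 18 and 0 without it). Same-numbered libraries correlated at -0.082 to 0.175 over all genes in their deviations from group means, not all above 0.1, so the numbers were not taken to pair the samples, although library 1 was the highest of its group for most main copies. Under total-count scaling 28.2% of calls in ITP-i against yki3SA were rises (51.2% with TMM, 63.1% with upper-quartile scaling), and 71.9% in ITP-i against control (60.6%).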

Other observations

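In every group the library numbered 1 was the highest for most main copies on the TMM scale, namely 26 of 29 genes in control, 29 of 29 in yki3SA and 29 of 29 in ITP-i. Library 1 also had the smallest TMM factor of each group (0.879, 1.058 and 0.940), which raises its levels on that scale. As CPM of total counts the sum of main copies was still highest in library 1 of each group. In ITP-i the margin was narrow, at 15365, 14569 and 15262 CPM. The yki3SA library numbered 3, with the largest TMM factor of 1.21, was the lowest of its group for ATPsynC, COX6B and UQCR-C1. As a share of total counts, all 45 members took 1.51% to 1.61% across control libraries, 1.135% to 1.29% across yki3SA libraries and 1.46% to 1.54% across ITP-i libraries.

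A pair of genes paralogous to abundant carriers and channels rose in ITP-i against yki3SA, and both were named after their values were seen. Of all genes tested, 10.6% were called higher in that comparison, and 14% lower in yki3SA against control. In ITP-i against control, 1 of the 6 carrier and porin genes was called higher, beside 6.37% of all genes tested. Ant2, the second adenine nucleotide translocase next to sesB, was at 4.13, 4.67 and 4.61 CPM across control libraries, 4.99, 4.61 and 2.73 CPM across yki3SA libraries and 12.8, 13.1 and 15.8 CPM across ITP-i libraries (log2 1.76 in ITP-i against yki3SA, adjusted p = 0.0012). Porin2, a paralogue of porin, was at 0.351, 0.236 and 2.06 CPM in the group means (log2 3.11 in ITP-i against yki3SA, adjusted p = 0.041). The yki3SA libraries had 3, 22 and 8 counts and the ITP-i libraries 73, 38 and 143. With 1 yki3SA library at the floor of 3 counts, the size of the fold change is uncertain. Porin2 may have passed the filter for testing through ITP-i, where it was high, so its call is a description rather than independent support. Cyt-c-d, the testis cytochrome c gene next to Cyt-c-p, fell from 0.712 to 0.104 CPM in yki3SA against control (log2 -2.72, adjusted p = 0.043). This rests on 9, 42 and 26 counts against 1, 9 and 5, with 1 yki3SA library under 3 counts, so the size of the fold change is uncertain.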
